A study of Mus musculus with 36 samples.

Results

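Alveolar macrophages grown from transferred yolk sac macrophages (YS-derived) were compared with alveolar macrophages grown from transferred alveolar macrophages (AM-derived). The 8 arrays, 4 of each kind, were chosen by their titles from the 36 arrays of the series, and all genes with a probe set of a single gene symbol that passed the filter on low values were compared, 12244 in number. The donor cells were sorted from wild-type C57BL/6 mice that carried both CD45.1 and CD45.2, as yolk sac macrophages of E12.5 embryos or as alveolar macrophages of mice 6 to 12 weeks old. They were given through the nose to newborn Csf2rb-/- mice, and 6 weeks later the donor-type alveolar macrophages were sorted from the lavage fluid, so both groups shared a Csf2rb-deficient host and a wild-type genotype of the cells themselves. Part of each donor sort was kept for RNA and gave 4 arrays of yolk sac macrophages and 4 of adult alveolar macrophages. Also used were macrophages grown in the same kind of host from fetal liver monocytes of E15.5 embryos (FL-derived) or from adult bone marrow monocytes (BM-derived), and never-transferred alveolar macrophages of 6-week-old wild-type mice (native), with 4 arrays each. All arrays carry a biological replicate number in their titles, while how many mice each one stands for is not given in the labels. The recipient limits the groups as a model, since mice without Csf2rb are known to lack mature alveolar macrophages of their own.

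Alveolar macrophages live in the airspaces, where they take up inhaled particles and clear surfactant. Their precursors reach the lung around birth and mature under GM-CSF, whose receptor includes the common beta chain encoded by Csf2rb, and under TGF-beta, both acting through the nuclear receptor PPAR-gamma. Yolk sac macrophages are the first macrophages of the embryo and arise before fetal liver monocytes. The comparison asks whether cells of such an early origin, once they have become alveolar macrophages, still differ from alveolar macrophages that were moved to a new lung.

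Both groups expressed the markers of alveolar macrophages. All 12 alveolar macrophage markers on the array lay above the median of the whole table (4.62 on the log2 intensity scale used throughout) in every array of both groups. Their mean per array was 10.60 to 10.73 in YS-derived and 10.68 to 10.97 in AM-derived cells, against 4.6 to 4.85 in the donor yolk sac macrophages. Of 60 markers of 11 other cell types, 40 were tested and 0 passed. As only 0.588% of all genes passed, a count of 0 says little about other cells. The filter counts all 36 arrays, so some of the 40 were dim in the compared groups. C1qb, Fcrls, Lyve1 and Hbb-y, for example, lay under the table median in all 8 arrays. The rest of the 60 were too dim for the filter and could not pass, among them all 4 eosinophil, all 4 endothelial and all but 1 of the 3 B cell markers. The mean over the B cell, eosinophil and endothelial markers, the dimmest types, stayed under 3.90 in every array of both groups. Monocyte markers averaged 4.75 to 4.95 per array in YS-derived and 4.72 to 4.86 in AM-derived cells. Lung epithelial markers averaged 4.64 to 4.94 and 4.77 to 4.97 in the same order. Yolk sac or tissue macrophage markers averaged 4.85 to 5.21 and 4.83 to 5.06. Some single markers were bright in every array: S100a8 at 10.06 or above, Dab2 at 10.73 or above and Cxcr2 at 5.94 or above. Xist lay at 6.37 to 8.53 in YS-derived and 7.99 to 8.62 in AM-derived arrays and the Y-linked Eif2s3y at 6.55 to 7.57 and 5.78 to 7.34, and 0 of the 4 sex-linked genes tested passed. The correlation across genes of an array with each other array of its own group averaged r = 0.9748 to 0.981. AM-derived replicate 4 had the lowest of these values, with 0.9781 the next, and lay at 26.1 on the first principal component against -3.13 to 12.0 in the rest of its group.

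The difference between the groups was small in number of genes and large in a few of them. Of 12244 genes, 72 passed the test (adjusted p under 0.05, limma), which is 0.588% of all genes tested. YS-derived cells were higher for 36 and lower for 36, each 0.294% of the genes tested. Of these, 22 higher and 25 lower genes differed at least 2-fold. An unadjusted p under 0.05 was reached by 762 genes, and the median of the differences over all genes was 0.004. The ranges of the 4 arrays did not overlap for 34 of the higher and for 36 of the lower genes, while 3.87% of all genes tested had no overlap. The called genes were chosen by a test on these same arrays, so their lack of overlap follows largely from that choice and is no separate support. The genes furthest apart encoded the peptide-presenting MHC class II molecule, and beside them stood a junction protein, a splicing regulator and a lysosomal protease on the lower side, and fibronectin, the growth hormone receptor and complement factor C2 on the higher side.

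MHC class II molecules display peptides from engulfed material to T helper cells. H2-Aa, H2-Ab1 and H2-Eb1 encode their alpha and beta chains on chromosome 17, and Cd74 encodes the invariant chain that guards the peptide groove until the molecule reaches the endosome. These genes are switched on together through an X box and a Y box in their promoters, bound by the RFX complex and by NF-Y, to which the coactivator CIITA is recruited. The promoters of 2 of them are shown here since these boxes are what the genes share. The sequences are those of RefSeq (assembly GRCm38.p6), each from 250 bases before to 50 bases after the gene's start, written 5′ to 3′ on the gene's strand, with the X box letters GCAAC and the Y box letters GATTGG in capitals. The H2-Aa window is chr17:34287774-34288073 on the minus strand and the H2-Eb1 window is chr17:34305617-34305916 on the plus strand.
H2-Aa: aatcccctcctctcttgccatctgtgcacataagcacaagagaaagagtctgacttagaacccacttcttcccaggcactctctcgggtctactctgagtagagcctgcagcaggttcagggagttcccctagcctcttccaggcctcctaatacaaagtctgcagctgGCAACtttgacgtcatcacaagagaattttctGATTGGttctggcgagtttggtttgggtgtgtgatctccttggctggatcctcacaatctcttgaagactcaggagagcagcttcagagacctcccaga
H2-Eb1: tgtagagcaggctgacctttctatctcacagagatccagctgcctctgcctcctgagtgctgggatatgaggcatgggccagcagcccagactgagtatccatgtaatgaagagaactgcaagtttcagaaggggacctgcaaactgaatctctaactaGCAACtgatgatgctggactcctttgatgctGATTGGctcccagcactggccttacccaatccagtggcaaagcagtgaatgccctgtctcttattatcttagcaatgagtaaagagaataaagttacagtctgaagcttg

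The letters lay 27 bases apart in H2-Aa and 26 bases apart in H2-Eb1. A search for GCAAC followed after 24 to 28 bases by GATTGG, on either strand, found the pair in 36 of 32851 promoter windows of the same length, which is 0.11%. GATTGG alone was found in 16.1% of the windows. The windows of H2-Oa and H2-Ob, which encode the chains of a regulator of peptide loading, held the pair as well, and those of H2-DMa, which encodes a chain of the peptide-loading factor, did not. No window of H2-Ab1 was at hand, and that of Cd74 is not shown.

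H2-Aa stood at 7.58, 7.18, 7.31 and 8.15 in the YS-derived arrays and at 10.58, 11.29, 11.12 and 10.75 in the AM-derived arrays. The highest YS-derived array lay more than 2 log2 units under the lowest AM-derived array. The difference was -3.38 ± 0.45 (SE), a 10.4-fold lower level in YS-derived cells, with an adjusted p of 1.14e-05. H2-Ab1 read 7.47, 6.50, 6.96 and 8.25 in YS-derived and 10.24, 10.86, 10.65 and 10.72 in AM-derived arrays, a difference of -3.32 ± 0.41 (adjusted p = 2.83e-06). H2-Eb1 read 5.54, 5.30, 5.74 and 6.27 in YS-derived and 8.27, 9.18, 9.21 and 8.56 in AM-derived arrays, a difference of -3.09 ± 0.41 (adjusted p = 1.12e-05). Cd74 read 7.10, 7.37, 7.0 and 8.26 in YS-derived and 10.37, 10.92, 10.46 and 10.18 in AM-derived arrays, a difference of -3.05 ± 0.39 (adjusted p = 7.34e-06). In all 4 genes the same YS-derived array, replicate 4, was the highest of its group, and no array of one group reached the range of the other.

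**Figure D1:**
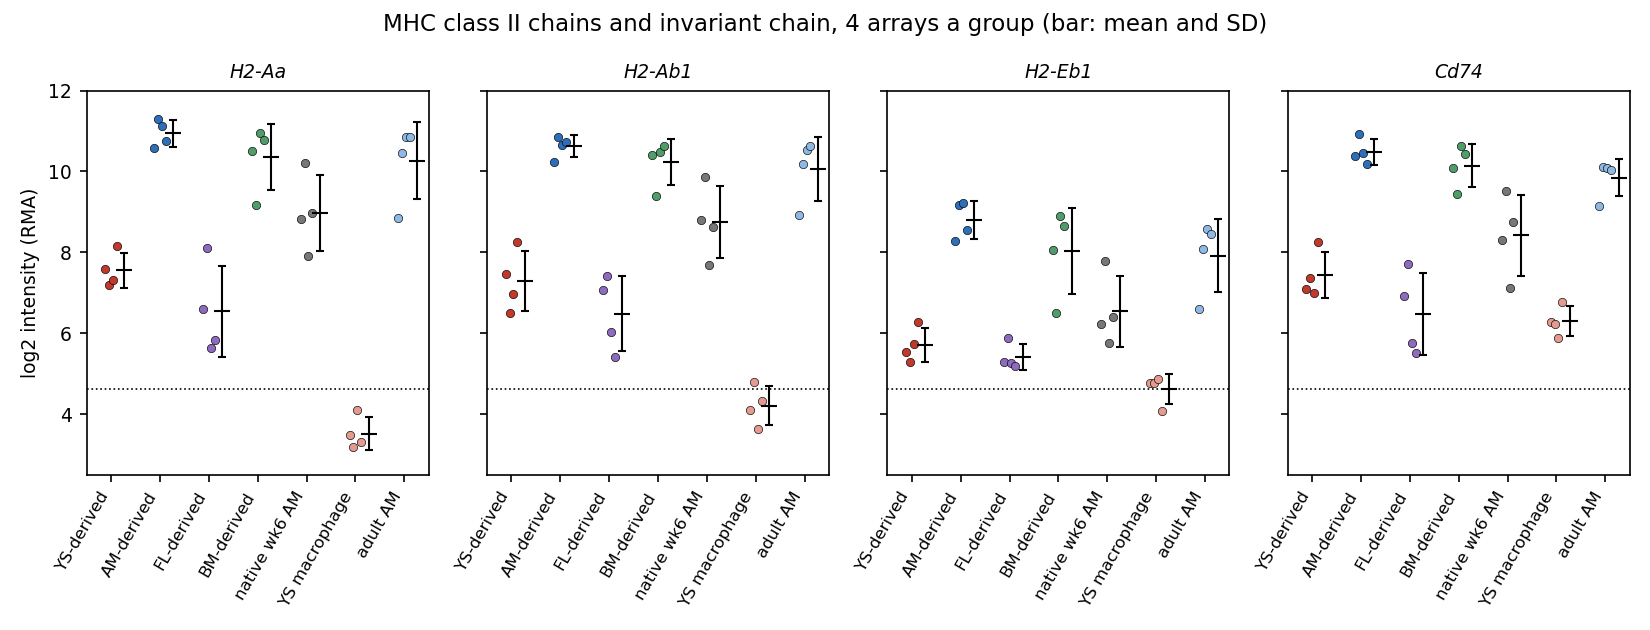
Log2 intensity (RMA, y axis) of H2-Aa, H2-Ab1, H2-Eb1 and Cd74 in each array of 7 groups (x axis); points are arrays, bars give mean and SD (n = 4), and the dotted line is the median of the whole table. YS-derived arrays sit near the FL-derived ones and under the AM-derived, BM-derived and adult alveolar macrophage arrays, with native arrays spread between.

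The remaining steps of class II presentation did not pass the test. Of the 13 genes of the list that were tested, 4 were lower (0.294% of all genes were), 0 were higher and 9 did not pass, and the median difference was -0.063 against 0.004 over all genes. H2-DMa averaged 10.38 ± 0.17 in YS-derived and 10.43 ± 0.15 in AM-derived cells (SD, n = 4 each), and the interval of its difference ran from -0.394 to 0.29. Ctss, the cathepsin that trims the invariant chain, averaged 12.13 ± 0.09 in YS-derived and 12.07 ± 0.05 in AM-derived cells. Ifi30, a thiol reductase of the endosome, read 10.74 ± 0.10 in YS-derived and 11.09 ± 0.13 in AM-derived cells, with an adjusted p of 0.513. Its arrays did not overlap, and the interval of its difference ran from -0.628 to -0.082. Beside native cells Ifi30 was lower in YS-derived cells, by -0.499 ± 0.134 (adjusted p = 0.0451). H2-Oa, H2-Ob, Lgmn and the costimulator Cd86 had adjusted p-values from 0.859 to 0.996. Ciita itself was too dim for the filter, at 3.82 to 3.94 in YS-derived and 4.05 to 4.27 in AM-derived arrays, and was not tested.

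The class II level also varied among the other groups. The H2-Aa level was 6.54 ± 1.12 in FL-derived, 10.35 ± 0.82 in BM-derived and 8.98 ± 0.94 in native cells (SD, n = 4 each). The native arrays ranged from 7.92 to 10.22 and lay across the gap between YS-derived and AM-derived cells. H2-Aa in YS-derived cells differed from native by -1.43 ± 0.45 (adjusted p = 0.134), and in AM-derived cells by 1.95 ± 0.45 (adjusted p = 0.0177). Both values rest on the same native arrays. Markers of dendritic cells, which hold much class II, averaged 3.92 to 4.11 per array in YS-derived and 3.88 to 4.35 in AM-derived cells over the 5 genes on the array. Xcr1 and Clec9a were under the table median in all 8 arrays and were not tested, and the other 3, Flt3, Zbtb46 and Ccr7, did not pass. B cell markers averaged 3.28 to 3.55 in YS-derived and 3.12 to 3.32 in AM-derived arrays. On bulk arrays, fewer cells with a transcript and less of it in each cell cannot be told apart.

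Several further genes were near the bottom of the scale in YS-derived cells and well above it in AM-derived cells. Mbnl3, a muscleblind RNA-binding regulator of splicing, read 4.41, 4.22, 4.96 and 4.92 in YS-derived and 7.41, 7.84, 7.84 and 7.48 in AM-derived arrays. The difference was -3.02 ± 0.28 (adjusted p = 1.66e-08), an 8.1-fold lower level. The YS-derived mean, 4.63, lay next to the table median, so the size of this fold is uncertain. Native cells, at 7.45 ± 0.06, FL-derived cells, at 7.29 ± 0.75, and BM-derived cells, at 7.59 ± 0.20, all lay close to the AM-derived level. Set against the mean of BM- and FL-derived cells, Mbnl3 differed by -2.81 ± 0.24 in YS-derived cells (adjusted p = 4.91e-09) and by 0.20 ± 0.24 in AM-derived cells (adjusted p = 0.862). These comparisons share arrays with the first one and with each other.

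Cldn1, the tight junction protein claudin-1, read 5.29, 3.70, 3.96 and 4.27 in YS-derived and 7.0, 7.31, 7.21 and 7.25 in AM-derived arrays. Since the mean of YS-derived cells lay under the table median, the fold is a bound: it was at least 5.94-fold lower (adjusted p = 1.61e-06). Such a bound sets the dimmer group at the table median. Napsa, the aspartic protease napsin A of lysosomes, read 5.04, 4.76, 5.75 and 5.55 in YS-derived and 7.36, 7.37, 7.63 and 6.81 in AM-derived arrays, 4.06-fold lower (adjusted p = 2.62e-06). Against the mean of BM- and FL-derived cells the differences in YS-derived cells were -3.08 ± 0.29 for Cldn1 and -2.34 ± 0.21 for Napsa (adjusted p = 2.8e-08 and 1.19e-08). In AM-derived cells they were -0.20 ± 0.29 and -0.32 ± 0.21, with adjusted p-values of 0.905 and 0.663. Like Mbnl3, these genes were low in YS-derived cells beside every other kind of alveolar macrophage measured.

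Plcb1, a phospholipase C, and the inhibitory IgG receptor gene Fcgr2b were also lowest in YS-derived cells among the alveolar macrophage groups. Plcb1 averaged 4.37 ± 0.20 in YS-derived, 5.87 ± 0.30 in AM-derived and 6.24 ± 0.25 in native cells (SD, n = 4 each), at least 2.37-fold lower in YS-derived than in AM-derived cells (adjusted p = 0.000263). Fcgr2b averaged 6.96 ± 0.28 in YS-derived, 8.11 ± 0.23 in AM-derived and 8.23 ± 0.34 in native cells, 2.22-fold lower in YS-derived than in AM-derived cells (adjusted p = 1.64e-05). The adaptor gene Stap1 and the kinase gene Map4k1, both of immune receptor signalling, differed by -1.44 ± 0.24 and -1.29 ± 0.25 (adjusted p = 0.000376 and 0.0036). All 4 genes also passed against the mean of BM- and FL-derived cells, at -1.39 for Plcb1, -0.89 for Fcgr2b, -1.11 for Stap1 and -0.96 for Map4k1. Against FL-derived cells alone, Plcb1 and Fcgr2b passed (adjusted p = 0.0123 and 0.00761), while Stap1 at -0.95 and Map4k1 at -0.40 did not (adjusted p = 0.0935 and 0.89). Mctp2, a membrane protein with C2 domains, read 3.40, 3.28, 3.14 and 3.48 in YS-derived and 5.61, 5.55, 5.06 and 5.82 in AM-derived arrays, at least 1.85-fold lower (adjusted p = 5.92e-08), with FL-derived cells at 4.18 ± 0.15 and BM-derived cells at 4.86 ± 0.38 in between.

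A second kind of lower gene passed between AM-derived cells and the mean of BM- and FL-derived cells, but not between YS-derived cells and that mean. Clec1b, which encodes the podoplanin receptor CLEC-2, read 5.70, 5.48, 6.08 and 6.03 in YS-derived and 8.43, 8.44, 8.34 and 8.41 in AM-derived arrays, 5.99-fold lower (adjusted p = 3.42e-07). Its native level was 6.36 ± 0.56, so that AM-derived cells differed from native by 2.05 (adjusted p = 2.69e-05) and YS-derived cells by -0.54 (adjusted p = 0.617). The adult alveolar macrophages given to the hosts had 8.18 ± 0.43. Spag11b, a relative of the beta-defensins known from the epididymis, read 6.90, 7.47, 7.98 and 6.64 in YS-derived and 9.99, 10.07, 10.36 and 9.57 in AM-derived arrays, 6.73-fold lower (adjusted p = 0.00203). Native cells had 7.66 ± 0.46 and the adult donors 8.36 ± 0.50. Klrb1b, a C-type lectin that inhibits natural killer cells, differed by -1.44 ± 0.26 (adjusted p = 0.00115), and the cancer-testis gene Ct55 was at least 1.45-fold lower (adjusted p = 0.000114). Ct55 lay between 3.44 and 3.68 in YS-derived and between 4.31 and 6.19 in AM-derived arrays, and the YS-derived arrays were all under the table median. Its adjusted p was 0.096 with the 8 arrays alone. Against the mean of BM- and FL-derived cells the AM-derived differences were 2.02 for Clec1b, 1.94 for Spag11b, 1.23 for Klrb1b, 1.56 for Ct55 and 1.49 for Igflr1, a receptor gene of the tumour necrosis factor receptor type. The YS-derived differences were -0.57, -0.81, -0.21, -0.04 and 0.26 in the same order, with adjusted p-values from 0.575 to 0.982. For Clec1b that mean covers unlike groups, at 7.31 in BM-derived and 5.47 in FL-derived cells, and YS-derived cells differed from BM-derived cells alone by -1.48 ± 0.28 (adjusted p = 0.002). For Spag11b the FL-derived arrays were spread widely, at 9.22, 8.64, 7.76 and 4.81, and BM-derived cells averaged 8.51 ± 0.53. Igflr1 stood at 8.75 ± 0.15 in AM-derived and 8.76 ± 0.39 in native cells.

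Cd69, a lectin-like marker of activation, read 5.41, 4.83, 5.06 and 4.57 in YS-derived and 6.12, 6.52, 6.71 and 6.83 in AM-derived arrays. Epcam, an adhesion molecule of epithelia that alveolar macrophages also carry, read 4.24, 5.46, 4.46 and 4.41 in YS-derived and 5.81, 7.14, 5.71 and 5.89 in AM-derived arrays. Both had an adjusted p of 0.0377, and both lost the call on removal of single arrays: Cd69 reached an adjusted p of 0.168 and Epcam one of 0.281 at most over the alternatives. Igflr1 differed by -1.23 ± 0.28 (adjusted p = 0.0206), with 0.0921 at most.

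Among the 36 higher genes, Ghr, the growth hormone receptor, had the lowest adjusted p. It read 6.06, 5.79, 5.55 and 6.10 in YS-derived and 4.17, 3.17, 3.52 and 3.27 in AM-derived arrays, at least 2.38-fold higher (adjusted p = 5.94e-09). All 4 AM-derived arrays and all native arrays, at 3.14 ± 0.14, were under the table median. C2, the complement component that forms the convertase with C4, read 6.53, 6.25, 5.21 and 6.26 in YS-derived and 3.85, 3.90, 4.31 and 4.18 in AM-derived arrays, at least 2.71-fold higher (adjusted p = 1.61e-06). Against the mean of BM- and FL-derived cells, YS-derived cells differed by 1.80 ± 0.17 for Ghr and by 1.70 ± 0.21 for C2 (adjusted p = 2.98e-08 and 3.16e-06). FL-derived cells lay in between, at 4.70 ± 0.56 for Ghr and 4.84 ± 0.54 for C2.

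Fn1 encodes fibronectin, a matrix protein that monocytes and macrophages secrete. It read 9.16, 8.80, 8.90 and 9.62 in YS-derived and 6.61, 7.14, 6.36 and 5.82 in AM-derived arrays, 6.22-fold higher (adjusted p = 0.000101). Between the compared groups, AM-derived cells lay further from native cells, which had 10.20 ± 0.23. AM-derived cells differed from native by -3.72 ± 0.40 (adjusted p = 6.15e-07) and YS-derived cells by -1.08 ± 0.40 (adjusted p = 0.271). BM-derived cells, at 7.38 ± 0.28, also lay under native cells, and FL-derived cells had 9.40 ± 1.20. Ptges, which makes prostaglandin E2, read 7.47, 7.55, 6.96 and 6.32 in YS-derived and 5.12, 5.94, 4.83 and 4.65 in AM-derived arrays, 3.84-fold higher (adjusted p = 0.00206), with native cells at 5.6 ± 0.27. Serpinb6b, an intracellular protease inhibitor, differed by 1.72 ± 0.32 (adjusted p = 0.00202).

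Igf2bp3, an RNA-binding protein of fetal and tumour cells that adult tissues mostly lack, read 6.74, 6.84, 6.55 and 7.09 in YS-derived and 5.51, 5.58, 5.06 and 4.76 in AM-derived arrays. It was 2.98-fold higher (adjusted p = 1.95e-07). FL-derived cells had 6.61 ± 0.19, and BM-derived and native cells had 5.33 ± 0.24 and 5.22 ± 0.19, so that the cells of embryonic donors stood above those of adult donors. It was the single member of the fetal growth list to pass, of 11 tested, where 0.588% of all genes passed, and 1 gene is no result about the list. Slc27a1, a fatty acid transporter, read 7.41, 7.44, 7.69 and 8.14 in YS-derived and 6.38, 5.74, 6.16 and 5.74 in AM-derived arrays, 3.17-fold higher (adjusted p = 1.61e-06). FL-derived and BM-derived cells, at 7.41 ± 0.44 and 7.40 ± 0.38, lay near the YS-derived level, and native cells, at 5.81 ± 0.09, near the AM-derived one.

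Fabp7, a fatty acid-binding protein of the brain, was at least 4.1-fold higher (adjusted p = 0.00381), with the AM-derived mean under the table median and with groups that overlapped. It read 7.89, 5.22, 6.90 and 6.63 in YS-derived and 5.27, 3.77, 3.87 and 3.82 in AM-derived arrays. With the 8 arrays alone its adjusted p was 0.0869. Awat1, a wax ester synthase, differed by 1.57 ± 0.37 and Akr1b8, an aldo-keto reductase, by 1.55 ± 0.37 (adjusted p = 0.0332 and 0.0377). Both were higher than in native cells in YS-derived cells, by 3.29 and 3.41 (adjusted p = 1.88e-07 and 1.07e-07). In AM-derived cells they were higher too, by 1.72 and 1.86 (adjusted p = 0.00879 and 0.00425). FL- and BM-derived cells averaged 7.65 and 7.83 for Awat1, beside 7.84 in YS-derived cells, and 7.41 and 7.76 for Akr1b8. Awat1 lost the call on removal of any of 6 of the 8 arrays, with an adjusted p of up to 0.169. Akr1b8 stood at 8.46, 8.30, 8.17 and 8.68 in YS-derived and at 7.73, 8.03, 5.99 and 5.66 in AM-derived arrays, a wide spread in the AM-derived group, and its adjusted p was 0.412 with the 8 arrays alone.

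The other higher genes named by the rule were adaptors, signalling and contact proteins. Stap2, an adaptor of cytokine signalling, differed by 1.73 ± 0.24, and Apbb2, an adaptor of the amyloid precursor protein, by 1.5 ± 0.22 (adjusted p = 1.77e-05 and 6.88e-05). Gng12, a G protein gamma subunit, differed by 1.37 ± 0.24 (adjusted p = 0.000798), and Nectin3, a cell contact protein, by 1.03 ± 0.14 (adjusted p = 9.71e-06). Pkp2, plakophilin-2 of desmosomes, read 4.61, 4.82, 4.63 and 4.97 in YS-derived and 3.48, 3.34, 3.35 and 3.30 in AM-derived arrays (adjusted p = 9.58e-07), all close to the table median or under it, at least 1.1-fold higher. For the next 4 genes the AM-derived mean was under the table median and the fold is again a bound. Ppic, cyclophilin C, was at least 2.64-fold higher, Hnmt, which methylates histamine, at least 1.02-fold, Fmr1nb at least 1.03-fold and the kinase gene Stk39 at least 1.72-fold, with adjusted p-values from 0.0047 to 0.015. The groups overlapped for Stk39, as AM-derived replicate 2 at 5.28 lay above YS-derived replicates 2 and 3 at 5.08 and 5.09. With the 8 arrays alone these 4 genes and Stap2 had adjusted p-values from 0.0635 to 0.415.

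**Figure D2:**
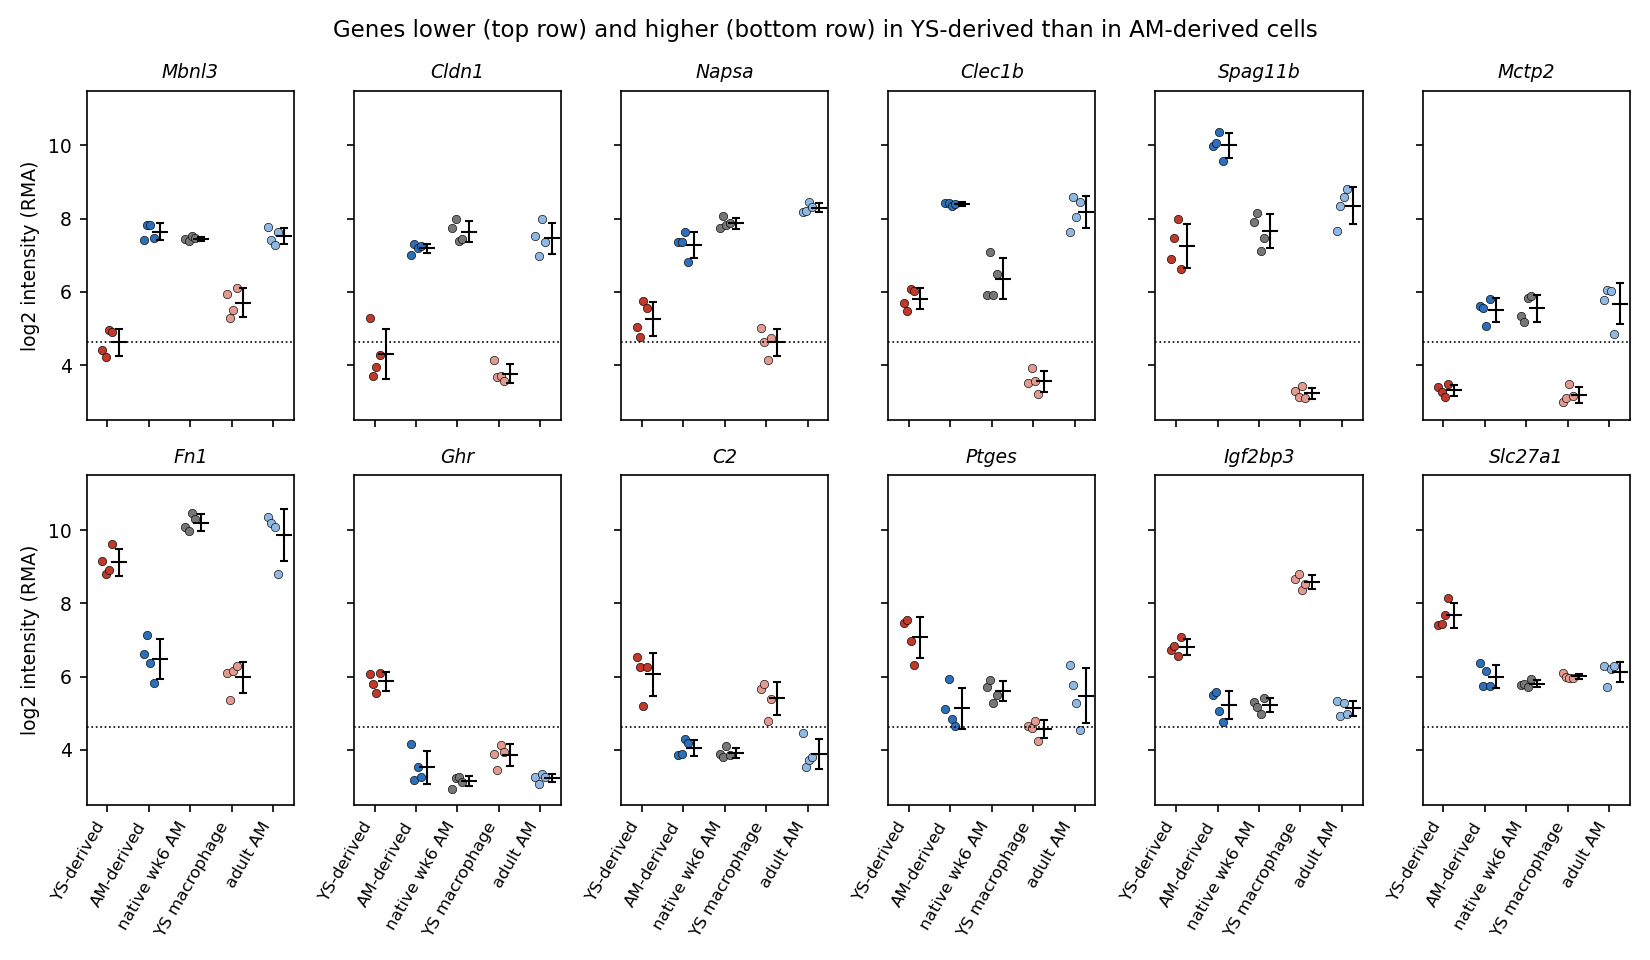
Log2 intensity (RMA, y axis) of 6 genes lower (top row) and 6 genes higher (bottom row) in YS-derived cells, in each array of 5 groups (x axis); points are arrays, bars give mean and SD (n = 4), and the dotted line is the table median. Mbnl3, Cldn1 and Napsa are low in YS-derived cells and high in AM-derived and native cells, Clec1b and Spag11b are high in AM-derived and lower in native cells, and Fn1 is low in AM-derived cells.

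The donor cells show the same genes before transfer. Their arrays are not among the 8 compared, though the spread of each gene and the filter come from all 36 arrays, theirs included. Yolk sac macrophages differed from adult alveolar macrophages in 5166 of 12244 genes (42.2%), higher in 2783 (22.7%) and lower in 2383 (19.5%). Of the 36 genes lower in YS-derived cells, 35 (97.2%) were also lower in yolk sac macrophages, and Cd69 did not pass there. Of the 36 higher genes, 19 (52.8%) were also higher in yolk sac macrophages, 15 did not pass, and 2 were lower there, Fn1 and Ptges. In all, 54 genes passed in the same direction before and after transfer, which is 75% of the 72 genes and 1.05% of the 5166. The standard deviation of the differences over all genes was 1.081 between the donors and 0.238 between the transferred groups, and the differences correlated across the 12244 genes at r = 0.155. All values come from 1 platform and a joint normalisation.

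H2-Aa had a donor difference of -6.74, with 3.52 ± 0.40 in yolk sac macrophages and 10.26 ± 0.95 in adult alveolar macrophages, and a difference of -3.38 after transfer. The change, 3.36, passed the test of the difference between the differences (adjusted p = 7.61e-05), with the yolk sac macrophages under the table median. For Cldn1 and Mctp2 both YS-derived cells and yolk sac macrophages lay under the table median, and the size of a change could not be read. Fcgr2b, at -1.15 after transfer beside -1.30 before, and Cd74, at -3.05 beside -3.55, did not pass the test of change. Mbnl3 was further apart after transfer, -3.02 beside -1.82 (adjusted p of the change = 0.0186), with YS-derived cells at 4.63 ± 0.37, next to the table median, and yolk sac macrophages at 5.71 ± 0.39. On the higher side Igf2bp3 differed by 1.58 after transfer and by 3.46 before, and Ppic by 1.51 and 5.07. C2 differed by 2.00 after transfer and by 1.52 before. For Ppic and C2 the AM-derived cells and the adult alveolar macrophages were under the table median, so these sizes carry little information on a change.

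Other higher genes did not pass between the donors. Slc27a1 was at 6.01 ± 0.07 in yolk sac macrophages and 6.13 ± 0.28 in adult alveolar macrophages, and Pkp2 at 3.50 ± 0.14 and 3.38 ± 0.15. Stap2 was at 4.58 ± 0.08 and 5.03 ± 0.22 in the same order. Fn1 turned round: it was lower in yolk sac macrophages, 5.98 ± 0.42 against 9.86 ± 0.71 in adult alveolar macrophages, and higher in YS-derived than in AM-derived cells, so that the change was 6.52 ± 0.56 (adjusted p = 1.91e-11). The test of change was passed by 44 of the 72 genes, 26 of the higher and 18 of the lower ones, and by 29.7% of all genes (14.1% with a change above 0 and 15.7% below). The change includes the difference by which the 72 genes were called, so their share depends in part on that choice.

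**Figure D3:**
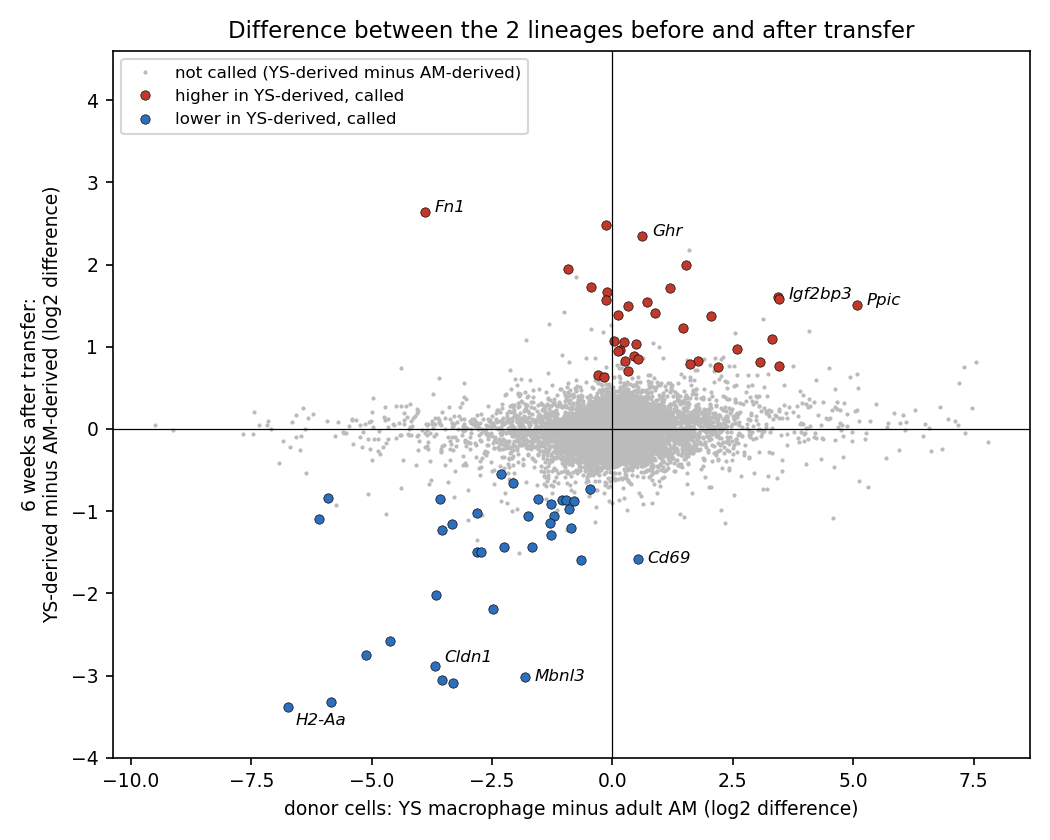
Log2 difference between YS-derived and AM-derived cells 6 weeks after transfer (y axis) against the log2 difference between the donor yolk sac and adult alveolar macrophages (x axis) for 12244 genes (grey), with the 36 called higher (red) and 36 called lower (blue) genes. All blue points but Cd69 lie left of 0, the red ones lie on both sides, and most grey points with large donor differences lie near 0 on the y axis.

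Genes that mark alveolar macrophages or set them apart from other macrophages were taken as a panel of 14, and none passed. Pparg averaged 10.03 ± 0.13 in YS-derived and 10.01 ± 0.19 in AM-derived cells (SD, n = 4 each), with an interval of the difference from -0.281 to 0.306. The alpha and beta chains of the GM-CSF receptor, Csf2ra and Csf2rb, differed by 0.26 (interval -0.11 to 0.631) and 0.01 (interval -0.382 to 0.408). Car4, a carbonic anhydrase, averaged 11.55 ± 0.10 in YS-derived and 11.35 ± 0.20 in AM-derived cells, against 3.79 ± 0.14 in yolk sac macrophages. Siglecf, the sialic acid lectin used to sort alveolar macrophages, read 8.53, 8.49, 8.88 and 8.72 in YS-derived and 9.53, 9.52, 9.11 and 9.15 in AM-derived arrays. Its arrays did not overlap, the interval was -1.059 to -0.287, and the adjusted p was 0.141, with 0.0487 when arrays were weighted by their quality. Native cells had 9.62 ± 0.10, from which YS-derived cells differed by -0.96 ± 0.19 (adjusted p = 0.00183) and AM-derived cells by -0.29 ± 0.19 (adjusted p = 0.702).

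The scavenger receptor gene Marco had an interval of -0.753 to -0.012 and the fatty acid-binding protein gene Fabp4 one of -0.054 to 0.8, and their adjusted p-values were 0.764 and 0.876. Beside native cells Marco differed by 0.37 in YS-derived cells (adjusted p = 0.573) and by 0.76 in AM-derived cells (adjusted p = 0.0255). Itgax, Mrc1, Adgre1 and Mertk had adjusted p-values from 0.885 to 0.996. Cx3cr1, the fractalkine receptor gene, was at 5.67 ± 0.30 in YS-derived and 5.44 ± 0.32 in AM-derived cells, against 10.93 ± 0.21 in yolk sac macrophages. Timd4, a receptor for dying cells found on embryonic macrophages, averaged under the table median in YS-derived and AM-derived cells, against 6.76 ± 0.28 in yolk sac macrophages. Ccr2 was at 5.40 ± 0.30 in YS-derived and 5.48 ± 0.22 in AM-derived cells. A p that misses the threshold does not show equal levels, and the intervals bound these differences.

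**Figure D4:**
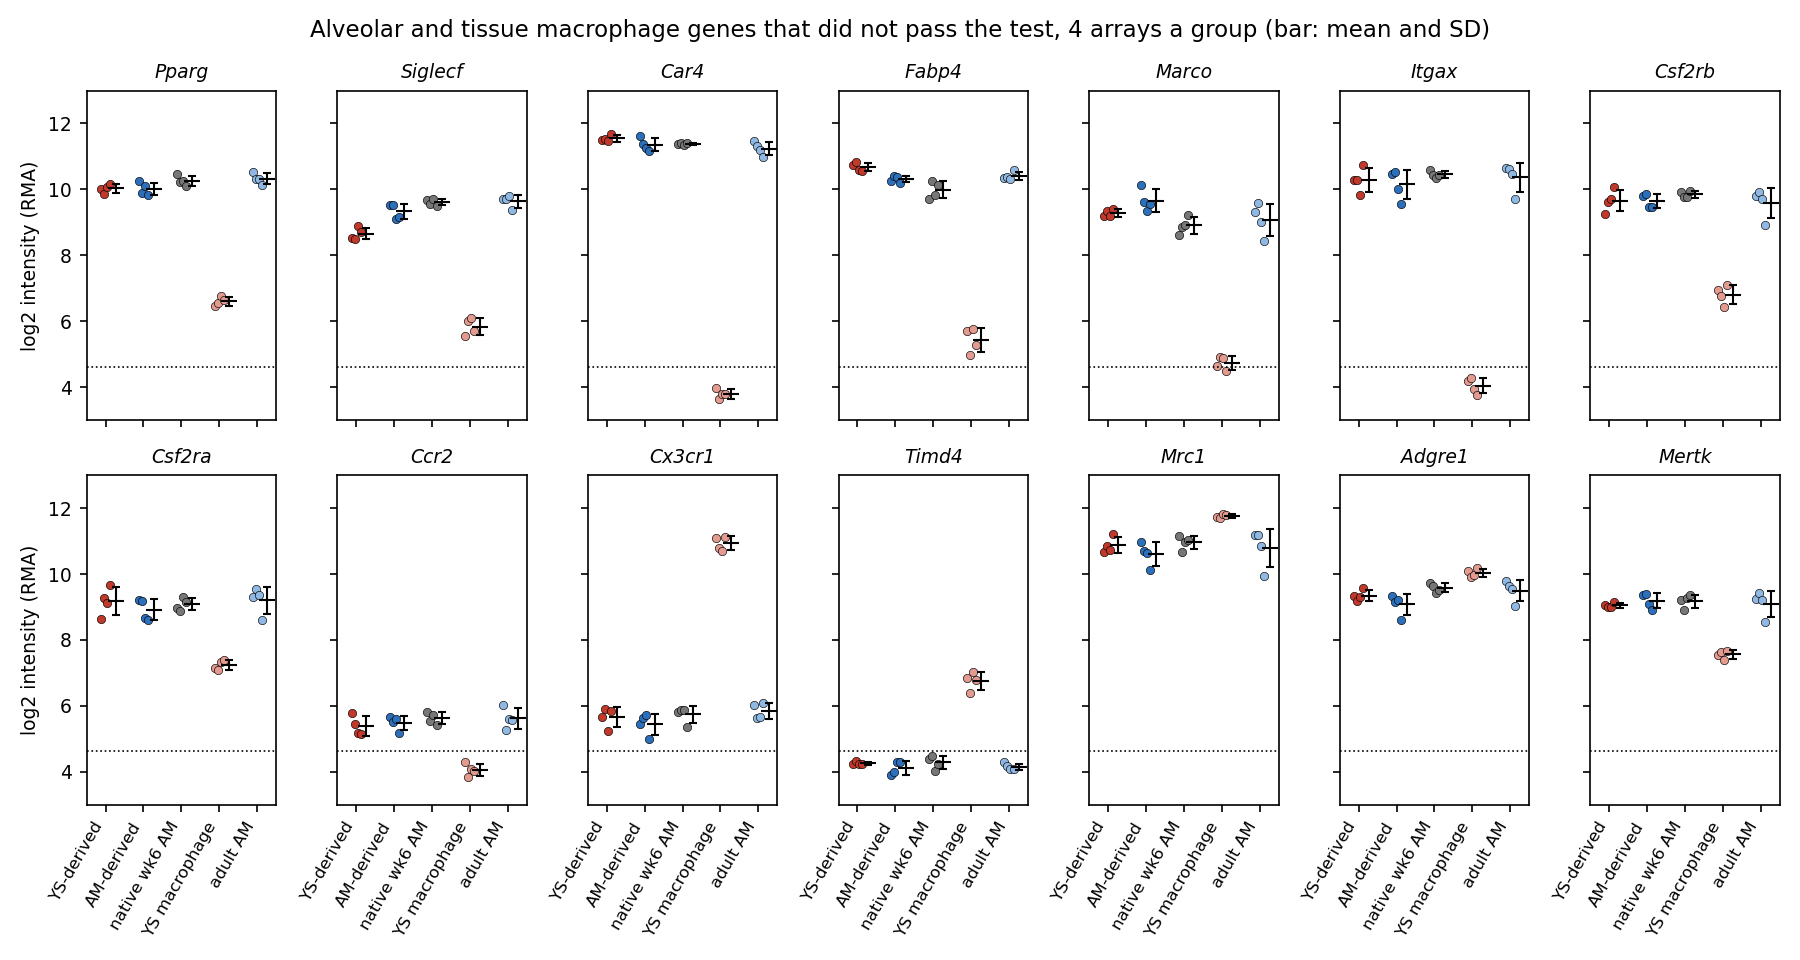
Log2 intensity (RMA, y axis) of the 14 panel genes in each array of 5 groups (x axis); points are arrays, bars give mean and SD (n = 4), and the dotted line is the table median. None of the 14 genes passed between YS-derived and AM-derived cells, whose arrays do not overlap for Siglecf and Fabp4, and Pparg, Car4 and Cx3cr1 show yolk sac macrophages far from both.

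Of 31 alveolar macrophage markers in a longer list, Epcam passed (lower) and 30 did not, with a median difference of 0.013 against 0.004 over all genes. All 31 had been lower in yolk sac macrophages than in adult alveolar macrophages, where 19.5% of all genes were lower. Krt79, a keratin of alveolar macrophages, differed by -0.79 ± 0.24 (adjusted p = 0.236). Beside native cells, where 1.72% of all genes passed for YS-derived and 1.07% for AM-derived cells, 5 of the 31 passed in YS-derived cells, with Cdh1 higher and Cidec, Epcam, Krt79 and Siglecf lower. In AM-derived cells 2 of the 31 passed, Cdh1 and Marco, both higher. Krt79 differed from native by -1.25 in YS-derived cells (adjusted p = 0.00153) and by -0.46 in AM-derived cells (adjusted p = 0.601). Read against the 0.588% of all genes that passed, lists of this size would hold fewer than 1 called gene each, so a count of 0 says nothing particular about a list. No gene passed among 27 transcription factors of alveolar macrophages, 25 genes of GM-CSF, M-CSF and TGF-beta signalling or 32 genes of lipid uptake, storage and efflux. The transcription factor gene Maf, high in tissue macrophages, averaged 4.37 ± 0.24 in YS-derived and 3.91 ± 0.19 in AM-derived cells, both under the table median, against 7.96 ± 0.38 in yolk sac macrophages. Apoe, an apolipoprotein of lipid export, stood at 7.47 ± 0.56 in YS-derived and 6.73 ± 0.61 in AM-derived cells, against 12.06 ± 0.05 in yolk sac macrophages. Of 28 markers of tissue and fetal macrophages none passed, and 23 had been higher in yolk sac macrophages, where 22.7% of all genes were higher. Of 46 cell cycle genes none passed, with 43 higher in yolk sac macrophages beside the same 22.7% of all genes. Bub1b, a mitotic checkpoint kinase, differed by 0.54 ± 0.22 (adjusted p = 0.61).

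Single members passed in a few lists of macrophage function, where 0.588% of all genes passed. Of 38 lysosomal genes, Napsa was lower and 37 did not pass, and Ctsl, the protease cathepsin L, read 10.11, 9.80, 10.08 and 10.36 in YS-derived and 9.76, 9.62, 9.29 and 9.58 in AM-derived arrays (adjusted p = 0.0808, and 0.037 with centred arrays). Of 37 scavenger and phagocytic receptors, Fcgr2b was lower and 36 did not pass. Next to the threshold stood Msr1, scavenger receptor A, with a difference of 0.65 ± 0.16 (adjusted p = 0.0511), and the activating IgG receptor gene Fcgr1, with 0.56 ± 0.14 (adjusted p = 0.0528). Both passed when arrays were centred on their median, at 0.0281 and 0.0478. Of 13 complement genes, C2 was higher and 12 did not pass. Of 28 genes of proteases, their inhibitors and matrix, Fn1 and Serpinb6b were higher and 26 did not pass.

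Of 30 genes of adhesion and cytoskeleton, Pkp2 was higher, Cldn1 and Epcam were lower and 27 did not pass, the integrin gene Itga6 among them at 0.78 ± 0.26 (adjusted p = 0.323). Of 24 monocyte markers, Fn1 alone passed. Of 28 genes of oxidative stress and detoxification, Akr1b8 was higher and 27 did not pass. Ddah1, which breaks down inhibitors of nitric oxide synthesis, was among those 27 with an adjusted p of 0.0599. It read 10.46, 10.35, 11.09 and 11.10 in YS-derived and 9.85, 8.07, 7.48 and 8.91 in AM-derived arrays, against 4.44 to 5.25 in native cells. No array of one group reached the range of the other, and the adjusted p was 0.0464 with centred arrays. Of 18 ribosomal genes and paralogs, Rps4l passed at 0.89 ± 0.18 (adjusted p = 0.00672). A second probe set of Rps4l differed by 0.318, and with the probe sets averaged the gene did not pass.

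Across the whole profile, each array was set against native cells. The root mean square difference from the mean native profile was 0.386, 0.365, 0.362 and 0.356 in YS-derived and 0.336, 0.338, 0.351 and 0.404 in AM-derived arrays. The means were 0.367 ± 0.013 and 0.357 ± 0.032 (SD, n = 4 each), and an exact two-sided permutation test over the 70 regroupings gave p = 0.571, with 0.0286 the smallest p it can give. The AM-derived mean and its spread rested on replicate 4. Without that array the difference was 0.0255 instead of 0.00992, and the groups did not overlap. The exact p was then 0.0571 over 35 regroupings, so even groups fully apart did not reach 0.05 here. Gene by gene, 211 genes (1.72%) passed between YS-derived and native cells, 125 higher (1.02%) and 86 lower (0.702%). Between AM-derived and native cells 131 genes (1.07%) passed, 93 higher (0.76%) and 38 lower (0.31%). These counts share the native arrays. Against the mean of BM- and FL-derived cells, 68 genes (0.555%) passed for YS-derived cells, 38 higher (0.31%) and 30 lower (0.245%), and 61 (0.498%) for AM-derived cells, 45 higher (0.368%) and 16 lower (0.131%). Set against each group alone, YS-derived cells differed from BM-derived cells in 102 genes (0.833%), 48 higher (0.392%) and 54 lower (0.441%), and from FL-derived cells in 33 (0.27%), 20 higher (0.163%) and 13 lower (0.106%). In fits to the compared groups alone these 4 counts were 33, 28, 63 and 9. These counts share the BM- and FL-derived arrays.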

How the data were processed

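RNA of sorted cells, amplified before hybridisation per the series' design text, was measured on 36 Affymetrix Mouse Gene 1.0 ST arrays in 9 groups of 4, taken from the titles. The authors deposited log2 values for 35556 probe sets. They came from RMA, according to the submitters' processing notes, which give no version. RMA forces all arrays to 1 distribution, which removes shifts shared by most genes and compresses differences of dim genes. 0 columns belonged to samples outside the series. The number of arrays limits the precision: the median standard error of a difference was 0.168.

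Probe sets with 1 gene symbol in the platform annotation held by GEO (21789) were used, and those with several (1621) or none (12146) were left out. Symbols were updated through RefSeq genes of GRCm38.p6 (21698 matched, 91 kept their name). The probe set with the highest mean stood for each of 19938 genes. Genes above the table median (4.623) in at least 4 arrays were tested, 12244 in all. Probe sets of related genes can share signal.

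With limma 3.58.1 (R 4.3.3), lmFit and eBayes were run on the 36 arrays with a mean for each of the 9 groups and with Benjamini-Hochberg adjustment within each contrast over all genes tested and a call at an adjusted p under 0.05. Intervals are 95% intervals of this fit, unadjusted. The change of the donor difference was tested as a contrast of the 4 groups. In simulated data for the YS-derived against AM-derived comparison with 12244 genes, 92 of 100 genes changed by 1 log2 unit and 100 of 100 changed by 2 were recovered, with 6 false calls. The simulated noise was normal, independent and of equal spread in every group, as the fit assumes. The real arrays need not share this, so these counts are not the recovery or error rate of the real comparison. Figures were drawn with matplotlib 3.10.9 in Python 3.11.15.

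The genes, the 40 lists and the alternatives were chosen with earlier results of these data known. Named were the panel of 14 genes, the up to 15 called genes per direction with the largest difference and no overlap (leaving out predicted and small RNA genes), those that also passed against BM- and FL-derived cells or between the donors, and list members by adjusted p. Of the other called genes only counts are given, with Fabp7 as an exception. Same-numbered YS-derived and AM-derived arrays did not deviate together (r from -0.233 to -0.006), so replicate numbers were not used as pairs. Donor arrays were not checked in this way against the arrays grown from them, and the test of change treats them as independent. No scan date was used. Alternatives were the filter, the prior, array weights, median centring, averaged probe sets, the replicate block, a fit to the compared groups alone and leaving out each array.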

Additional observations from a re-analysis of the deposited data

Results flagged for a closer look

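The difference between YS-derived and AM-derived cells departed from that between their donors, by the test of the change, for 23 of the 39 called genes named above, where 29.7% of all genes passed that test. The change includes the difference by which these genes were called, so their share depends in part on that choice. On the log2 scale a change above 0 means that YS-derived minus AM-derived lies above yolk sac minus adult alveolar macrophage. Among the genes lower in YS-derived cells the change was above 0, a smaller gap after transfer, for H2-Aa (3.36), H2-Ab1 (2.53), Spag11b (2.36), Igflr1 (2.30), Clec1b (2.05), Napsa (1.65) and Plcb1 (1.32). It was below 0, a wider gap after transfer, for Mbnl3 (-1.20) and Ct55 (-0.94), and for Cd69 (-2.10), whose donors did not differ by the test. Among the genes higher in YS-derived cells a smaller gap after transfer was seen for Ppic (-3.56), Stk39 (-2.22) and Igf2bp3 (-1.89). A gap that was wider or arose after transfer was seen for Fabp7 (2.62), Stap2 (2.17), Slc27a1 (1.79), Ghr (1.72), Awat1 (1.70), Pkp2 (1.27), Apbb2 (1.17) and Nectin3 (0.54). Fn1 (6.52) and Ptges (2.85) had opposite directions before and after. For 16 of the 23 genes at least 1 of the 4 group means lay under the table median, where intensities carry little information, so the size of the change is uncertain. The 7 with all 4 means above it were Mbnl3, Napsa, Cd69, Igflr1, Fn1, Slc27a1 and Igf2bp3, though Mbnl3 in YS-derived cells, at 4.63, lay next to it.

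Single arrays lay far from the other 3 of their group for 7 of the 150 gene and group pairs looked at, where chance flags about 1 in 20. In AM-derived cells these were Epcam in replicate 2 (7.14, with the next at 5.89), Fabp7 in replicate 1 (5.27, next 3.87), Gng12 in replicate 1 (7.29, next 6.88), Igflr1 in replicate 3 (8.53, next 8.81) and Apbb2 in replicate 4 (4.14, next 4.72). In YS-derived cells they were H2-DMa in replicate 4 (10.63, next 10.33) and H2-Oa in replicate 3 (6.55, next 5.98).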

How the results depend on the processing

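The count of 72 genes lay between 56 and 87 under the other filters, priors, weights, scalings and probe set rules, and was 48 (19 higher, 29 lower) in a fit to the 8 arrays alone, which has fewer samples to estimate the spread. Without 1 of the 8 arrays it was 56 to 71. Of the 72 genes, 34 passed in every setting in which they were tested, 29 did not pass in the 8-array fit, 28 lost the call without at least 1 array, and 0 changed direction. With the replicate number as a block 75 genes passed, 70 of the 72 among them, and no named gene changed its call. In a fit to the compared groups alone, the counts fell to 33, against 68, for YS-derived and to 28, against 61, for AM-derived cells beside the mean of BM- and FL-derived cells. They fell to 63, against 102, for YS-derived beside BM-derived cells and to 9, against 33, for YS-derived beside FL-derived cells. Without single arrays those 4 counts were 49 to 76, 42 to 64, 78 to 92 and 23 to 33. Named genes lost the call without single arrays as follows, with adjusted p-values in brackets: Akr1b8 (0.058 to 0.259) without any but AM-derived replicate 1 or 2, Awat1 (0.0797 to 0.169) without any but YS-derived or AM-derived replicate 3, Cd69 (0.0789 to 0.168) without any but YS-derived or AM-derived replicate 1, Igflr1 (0.0575 to 0.0921) without any but YS-derived replicate 2 or AM-derived replicate 3. Epcam (0.0619 to 0.281) lost it without YS-derived replicate 1, 3 or 4 or AM-derived replicate 2 or 4, Stk39 (0.0666 to 0.133) without YS-derived replicate 1 or 4 or AM-derived replicate 1 or 3, and Fmr1nb (0.0933) without YS-derived replicate 2. Without YS-derived replicate 2, Fcgr1 (0.0122), Ctsl (0.033) and Msr1 (0.0413) passed, and without AM-derived replicate 1, Msr1 (0.0269) and Ddah1 (0.0172).

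Differences near 0 that did not pass turned sign: with array weights Pparg (-0.008), Itgax (-0.011) and Csf2rb (-0.023), and without single arrays Pparg (-0.048 to 0.087), Csf2rb (-0.12 to 0.146), Itgax (-0.061 to 0.282), H2-Ob (-0.124 to 0.054) and H2-DMa (-0.136 to 0.021). The difference in distance from native cells was 0.00268 to 0.0255 without single arrays, with exact p over 35 regroupings from 0.0571 (without AM-derived replicate 4) to 0.914. Intensities close to the table median carry little information on fold.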

Other observations

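Of 27 interferon response genes tested, 25 had a positive difference and none passed. The median difference was 0.299. The mean over the list was 6.74, 5.92, 6.01 and 6.84 in YS-derived arrays and 5.78, 6.27, 5.96 and 6.17 in AM-derived arrays, so that 2 of the 4 YS-derived arrays lay above all AM-derived arrays and the other 2 within or near their range. Ifit3, an antiviral protein gene, read 8.02, 6.00, 6.16 and 7.76 in YS-derived and 5.96, 6.19, 5.89 and 4.55 in AM-derived arrays (adjusted p = 0.439), and Irf7, a transcription factor of the interferon response, differed by 0.76 ± 0.27 (adjusted p = 0.427). Yolk sac macrophages were higher than adult alveolar macrophages for 20 of the 27 genes, and for 22.7% of all genes.

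Of 20 genes of cholesterol synthesis, 17 had a positive difference and none passed, with a median of 0.27. The mean over the list was 7.58, 7.41, 7.35 and 7.64 in YS-derived and 7.21, 7.51, 7.52 and 6.94 in AM-derived arrays, and the groups overlapped. Nsdhl and Cyp51, enzymes of the late steps, differed by 0.41 ± 0.17 and 0.45 ± 0.21 (adjusted p = 0.623 and 0.738). The chemokine gene Ccl17 was at 6.75, 6.25, 6.57 and 6.69 in YS-derived and at 7.69, 7.89, 6.54 and 10.21 in AM-derived arrays (adjusted p = 0.668). Egr2, a transcription factor gene of alveolar macrophages, differed by 0.47 ± 0.20 (adjusted p = 0.685).

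Probe sets with several gene symbols or with none were fitted apart. Of 879 with several symbols that passed the filter, 1 was higher and 1 lower in YS-derived cells (0.228%), and of 6645 with no symbol 2 were higher and 1 lower (0.0451%). An unadjusted p under 0.05 was reached by 43 and 277 of them.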
